A study of Mus musculus with 21 samples.

Results

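Mouse acute myeloid leukaemia cells carrying the MLL-AF9 fusion and a demethylase-dead Kdm5b, H499A, were compared with the same cells carrying an empty vector. The comparison takes the 2 H499A libraries and the 2 EV libraries, chosen by their labels, which are 4 of the 21 RNA sequencing libraries of the study, and covers all 13949 genes of their table. H499A cells were infected with an MSCV-neo retrovirus carrying the mutant Kdm5b. Cells with wild-type Kdm5b in the same vector (WT, 2 libraries) are set beside them. EV cells received that retrovirus without an insert. All 3 groups carry the MLL-AF9 fusion and were cultured in serum with mouse stem cell factor from a secreting cell line. Whether each population was a clone or a pool, and whether the 2 libraries of a group came from separate cultures, the labels do not say, so the p-values measure the spread between these libraries, which may be technical.

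KDM5B, also called JARID1B or PLU-1, removes methyl groups from lysine 4 of histone H3, a mark found at the promoters of active genes. It belongs to the Jumonji family of iron-dependent dioxygenases, and His499 is one of the residues that hold the iron. The protein also has DNA-binding and chromatin-reading domains and partners such as the NuRD complex, which the loss of the catalytic step does not remove. In leukaemias with MLL fusions, the fusion protein keeps HOXA genes and their cofactors switched on and holds the cells at a myeloid progenitor stage.

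The H499A name points to 1 codon of the mouse gene, shown here because the name gives it as the difference between the H499A and WT inserts. In GRCm38 the codon lies at chr1:134604580-134604582 on the plus strand, in exon 11 of 27 of Kdm5b by GENCODE M21 (a protein of 1544 residues), and the stretch of that exon printed here spans chr1:134604544-134604618, with the reference histidine codon in capitals. The sequence used for the insert is not given in the sources used here, and the deposited values cannot separate its reads from those of the cells' own gene.
Kdm5b H499A codon and its surroundings: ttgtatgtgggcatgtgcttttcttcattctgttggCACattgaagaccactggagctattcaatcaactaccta

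Kdm5b RNA rose in the H499A cells, but far less than in the WT cells. It had 309 and 279 normalised counts in the H499A libraries, 1409.6 and 1416 in the WT libraries and 114 and 128 in the EV libraries. The mean was 294 ± 21.5 in H499A, 1413 ± 4.48 in WT and 121 ± 9.89 in EV (SD, n = 2 each). The ranges of the 3 groups did not overlap. Against EV the H499A level was 2.42 times as high (log2 difference 0.48 ± 0.039 SE, limma adjusted p = 6.91e-11), and against WT it was 0.208 times the level (log2 difference -1.35 ± 0.039 SE, limma adjusted p = 3.02e-20). An exact two-sided permutation test over the 4 libraries of either pair gave p = 0.333, the smallest p that 2 against 2 libraries allow. Because mutant and wild type differ in level as well as in the codon, the part of the mutation and that of the amount of Kdm5b in any difference between H499A and WT cannot be told apart.

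**Figure D1:**
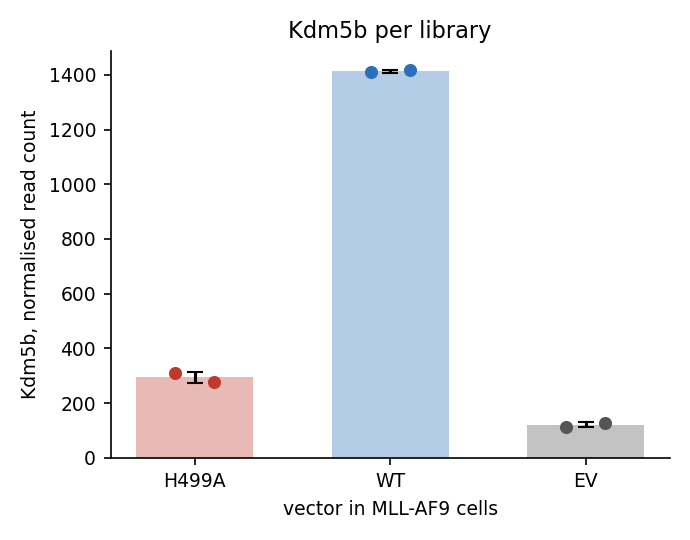
Kdm5b in normalised read counts (linear axis from 0) in H499A, WT and EV cells. Points are the 2 libraries of each group, bars their mean and lines the SD. The H499A libraries lie at 309 and 279, above both EV libraries and far below both WT libraries.

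Libraries of the MLL-AF9 table held 17.3 to 20.0 M counted reads. Levels are normalised read counts recovered from the deposited values, and log2 differences are on the deposited variance-stabilised scale, which understates changes of genes with few reads. Replicate libraries correlated at a Pearson r of 0.998 to 0.999, against 0.990 between H499A and EV libraries, and the spread between them, as chi-square over its degrees of freedom, was 1.39 in H499A, 12.8 in WT and 1.78 in EV (counting error alone gives 1). The first 2 principal components of the tested genes carried 59.3% and 35.3% of the variance. On the first, the H499A libraries stood at 0.18 and 0.33, between WT (11.7 and 11.6) and EV (-11.5 and -12.2), and on the second they stood alone at 10.5, with WT at -5.53 and -5.31 and EV at -4.96 and -5.20.

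The labelled cell type was checked on marker genes. All 10 myeloid markers were in the table and their summed level was 124755 and 123893 normalised counts in H499A, 173361 and 177483 in WT and 114514 and 109839 in EV. Defining genes of other lineages, such as Cd79a and Pax5 of B cells, Cd3e of T cells, the globins and Col1a1, were absent from the table. The 3 B cell markers present (of 10) summed to 745 and 730.5 in H499A, 257 and 278 in WT and 350.1 and 349.6 in EV, most of it Cd79b. For the 3 of 12 T and NK cell markers present the sum was 203 and 199 in H499A, 130.2 and 117 in WT and 208 and 248 in EV. Megakaryocyte markers (6 of 10 present) summed to 179 and 190.1 in H499A, 101 and 104 in WT and 114 and 113 in EV. The 3 of 12 markers of mast cells, basophils and eosinophils summed to 1029.8 and 994 in H499A, 1009 and 942 in WT and 1666 and 1668 in EV, mostly Gata2, which progenitors also express. Within that list Mcpt8, a basophil protease, had 83.6 and 71.4 normalised counts in the H499A libraries, 51.5 and 35.4 in the WT libraries and 244 and 244 in the EV libraries (ratio 0.318, limma adjusted p = 8.66e-11), while Cpa3 and Prss34 were absent from the table. Mcpt8 passed the filter on low values through EV alone. Stromal and endothelial markers (3 of 12 present) summed to 4686 and 4730.1 in H499A, 5738 and 5835 in WT and 3956 and 3823 in EV, nearly all of it Pecam1, which myeloid cells also express. Acta2, the smooth muscle actin, had 93.8 and 79.1 normalised counts in the H499A libraries, 65.1 and 70.7 in the WT libraries and 19.7 and 27 in the EV libraries and was below the filter. For erythroid markers (3 of 11 present) the sum was 7727 and 7540.0 in H499A, 6354 and 6359 in WT and 10445 and 10766 in EV, nearly all of it the transferrin receptor Tfrc. Dendritic cell markers (5 of 10 present) summed to 2362 and 2315 in H499A, 1943 and 2036 in WT and 2554 and 2508 in EV. The part of any of these cells in the results was not tested.

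Nearly as many genes rose as fell in H499A cells, and most changes were small. Of 9458 tested genes, 4689 (49.6%) passed a limma adjusted p under 0.05 between H499A and EV, 2148 higher (22.7%) and 2541 lower (26.9%). The median absolute log2 difference of these was 0.16, and their ratios ran from 0.758 at the 10th percentile to 1.52 at the 90th. Larger changes were mostly increases. Of the 9458 tested genes, 211 (2.23%) were called and at least 2-fold higher. Another 72 (0.761%) were called and at 0.5 times the EV level or less. The median over all tested genes was -0.012. In bulk RNA, fewer cells of a type and less RNA per cell cannot be told apart, which holds for every gene below.

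**Figure D2:**
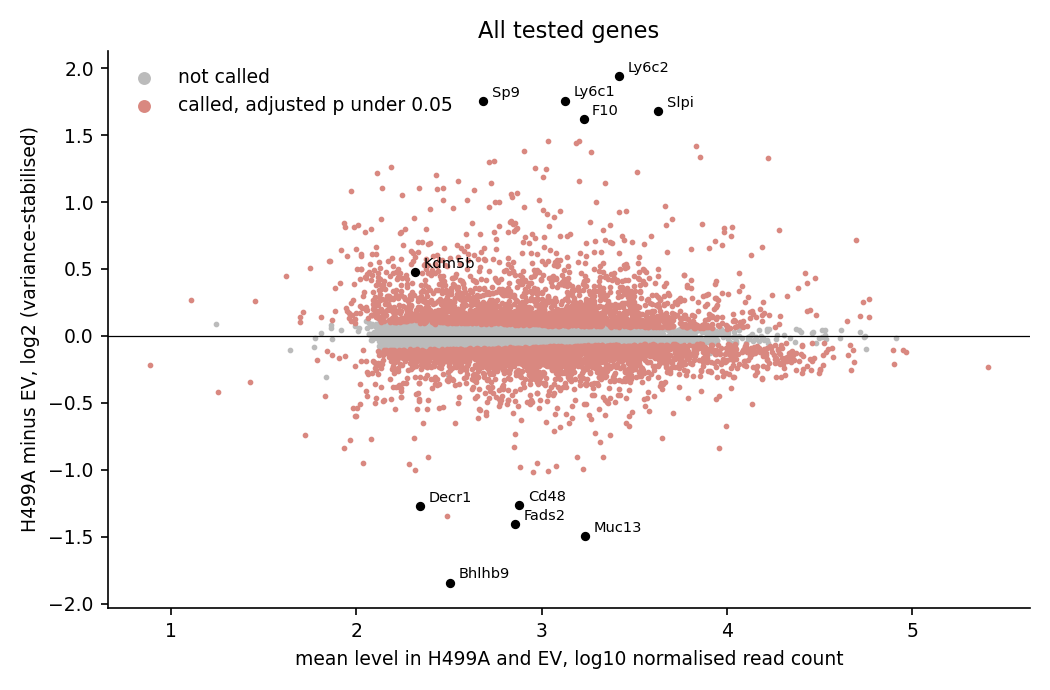
Difference between H499A and EV (log2, variance-stabilised scale) against the mean level of the 2 groups (log10 normalised read count) for the 9458 tested genes. Red points are the 4689 genes called at a limma adjusted p under 0.05, grey points the others, and black points mark Kdm5b and the 5 largest differences each way. Points above 1 outnumber those below -1.

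Several of the genes that rose most code for surface and secreted proteins of myeloid cells. Ly6c2 (chr15:75108158-75111970, minus strand, GRCm38), part of the Ly6C antigen of inflammatory monocytes, had 4409.7 and 4491 normalised counts in the H499A libraries, 1000.0 and 950.2 in the WT libraries and 804 and 777 in the EV libraries (ratio 5.63, log2 difference 1.94 ± 0.03 SE, limma adjusted p = 1.09e-25). Its neighbour Ly6c1 had 2221 and 2389 normalised counts in the H499A libraries, 458 and 469.7 in the WT libraries and 332 and 397 in the EV libraries (ratio 6.32, log2 difference 1.76 ± 0.04 SE, limma adjusted p = 2.17e-22). The coding sequences of these paralogs are nearly identical, which leaves their separate counts uncertain. WT cells stood close to EV for both, and the H499A libraries stood apart from all 4 others. Slpi, a secreted inhibitor of neutrophil proteases, had 6817 and 6754 normalised counts in the H499A libraries, 4424 and 4616 in the WT libraries and 1755 and 1761 in the EV libraries (ratio 3.86, log2 difference 1.68 ± 0.026 SE, limma adjusted p = 1.09e-25). Coagulation factor X, F10, had 2797 and 2771 normalised counts in the H499A libraries, 1002 and 1149 in the WT libraries and 623 and 549 in the EV libraries (ratio 4.75, log2 difference 1.62 ± 0.039 SE, limma adjusted p = 8.78e-22). For both genes WT lay between H499A and EV.

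Receptors were among the other large increases. Cd33, a sialic acid-binding lectin of myeloid cells, had 2564 and 2549 normalised counts in the H499A libraries, 407 and 404 in the WT libraries and 640.1 and 617 in the EV libraries (ratio 4.07, log2 difference 1.45 ± 0.033 SE, limma adjusted p = 2.17e-22). Colec12, a scavenger receptor with a collectin domain, had 1741 and 1856 normalised counts in the H499A libraries, 329 and 305 in the WT libraries and 385 and 359 in the EV libraries (ratio 4.83, log2 difference 1.46 ± 0.038 SE, limma adjusted p = 3.7e-21). In these 2 genes the WT libraries were below the EV libraries, while the H499A libraries were above both. Cd74, the invariant chain that guides MHC class II molecules, had 1332 and 1373 normalised counts in the H499A libraries, 638 and 675 in the WT libraries and 259 and 262 in the EV libraries (ratio 5.19, limma adjusted p = 3.84e-21). Cybb, the catalytic subunit of the phagocyte NADPH oxidase, had 10249 and 10173 normalised counts in the H499A libraries, 11454 and 11151 in the WT libraries and 3567 and 3386 in the EV libraries (ratio 2.94, log2 difference 1.42 ± 0.025 SE, limma adjusted p = 1.22e-24), so that here WT was as high as H499A or higher.

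Sp9 (chr2:73271925-73284706, plus strand), a zinc finger transcription factor known for its part in limb and forebrain development, was among the 10 largest increases. It had 877 and 972 normalised counts in the H499A libraries, 10.5 and 6.88 in the WT libraries and 42.4 and 47.5 in the EV libraries (ratio 20.6, log2 difference 1.75 ± 0.043 SE, limma adjusted p = 1.5e-21). Both H499A libraries were more than an order of magnitude above every WT and EV library. Sp9 passed the filter through H499A alone. Selenbp1, which codes for a selenium-binding methanethiol oxidase, had 2503 and 2405 normalised counts in the H499A libraries, 818 and 855 in the WT libraries and 632 and 572 in the EV libraries (ratio 4.08, log2 difference 1.44 ± 0.035 SE, limma adjusted p = 8.38e-22).

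Genes of lipid metabolism were among the largest decreases. Fads2, the delta-6 fatty acid desaturase, had 204 and 216 normalised counts in the H499A libraries, 292 and 303 in the WT libraries and 1209 and 1236 in the EV libraries (ratio 0.172, log2 difference -1.40 ± 0.037 SE, limma adjusted p = 5.82e-21). Insig1, which holds the sterol sensor SCAP in the endoplasmic reticulum and is itself induced when sterols are low, had 573 and 552 normalised counts in the H499A libraries, 758 and 851 in the WT libraries and 1586 and 1613 in the EV libraries (ratio 0.352, log2 difference -1.01 ± 0.036 SE, limma adjusted p = 3.23e-18). The WT libraries lay between H499A and EV in both. Decr1, a mitochondrial reductase needed to oxidise unsaturated fatty acids, had 23.2 and 17.4 normalised counts in the H499A libraries, 412 and 415 in the WT libraries and 433 and 411 in the EV libraries (ratio 0.0481, log2 difference -1.27 ± 0.041 SE, limma adjusted p = 2.6e-19). WT was level with EV for Decr1, and both H499A libraries were under 25 counts.

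Cebpa, the transcription factor required for granulocyte and monocyte progenitors, had 928 and 976 normalised counts in the H499A libraries, 2070.3 and 2103 in the WT libraries and 2376 and 2387 in the EV libraries (ratio 0.4, log2 difference -0.99 ± 0.03 SE, limma adjusted p = 6.53e-20). Elane, neutrophil elastase of the primary granules, had 461 and 419 normalised counts in the H499A libraries, 642 and 681 in the WT libraries and 1406 and 1284 in the EV libraries (ratio 0.327, log2 difference -1.02 ± 0.039 SE, limma adjusted p = 1.06e-17). Muc13, a transmembrane mucin, had 666 and 664 normalised counts in the H499A libraries, 1044 and 967 in the WT libraries and 2811 and 2702 in the EV libraries (ratio 0.241, log2 difference -1.50 ± 0.033 SE, limma adjusted p = 1.54e-22). The H499A libraries were the lowest of the 6 for these genes, with WT between H499A and EV. Cd48, a ligand of the natural killer receptor CD244, had 270.2 and 276 normalised counts in the H499A libraries, 684 and 649 in the WT libraries and 1227 and 1258 in the EV libraries (ratio 0.22, log2 difference -1.26 ± 0.036 SE, limma adjusted p = 2.28e-20). Il1r1, the signalling receptor of interleukin-1, had 44.6 and 42.5 normalised counts in the H499A libraries, 77.7 and 93.3 in the WT libraries and 354 and 389 in the EV libraries (ratio 0.117, limma adjusted p = 1.31e-16). Aff3, a nuclear protein of the family of MLL fusion partners, had 377 and 366 normalised counts in the H499A libraries, 630.2 and 603 in the WT libraries and 1104 and 1197 in the EV libraries (ratio 0.323, log2 difference -0.98 ± 0.037 SE, limma adjusted p = 9.98e-18). No H499A library overlapped an EV library in any of the 3, which held for 75% of all tested genes in either direction. Il1r1 passed the filter through EV alone.

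Bhlhb9 (chrX:135797594-135891081, plus strand) had the largest decrease, with 1.86 and 3.86 normalised counts in the H499A libraries, 590.3 and 577 in the WT libraries and 625 and 654 in the EV libraries (ratio 0.00447, log2 difference -1.84 ± 0.04 SE, limma adjusted p = 1.16e-22). It was almost silent in both H499A libraries and steady in the other 4.

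**Figure D3:**
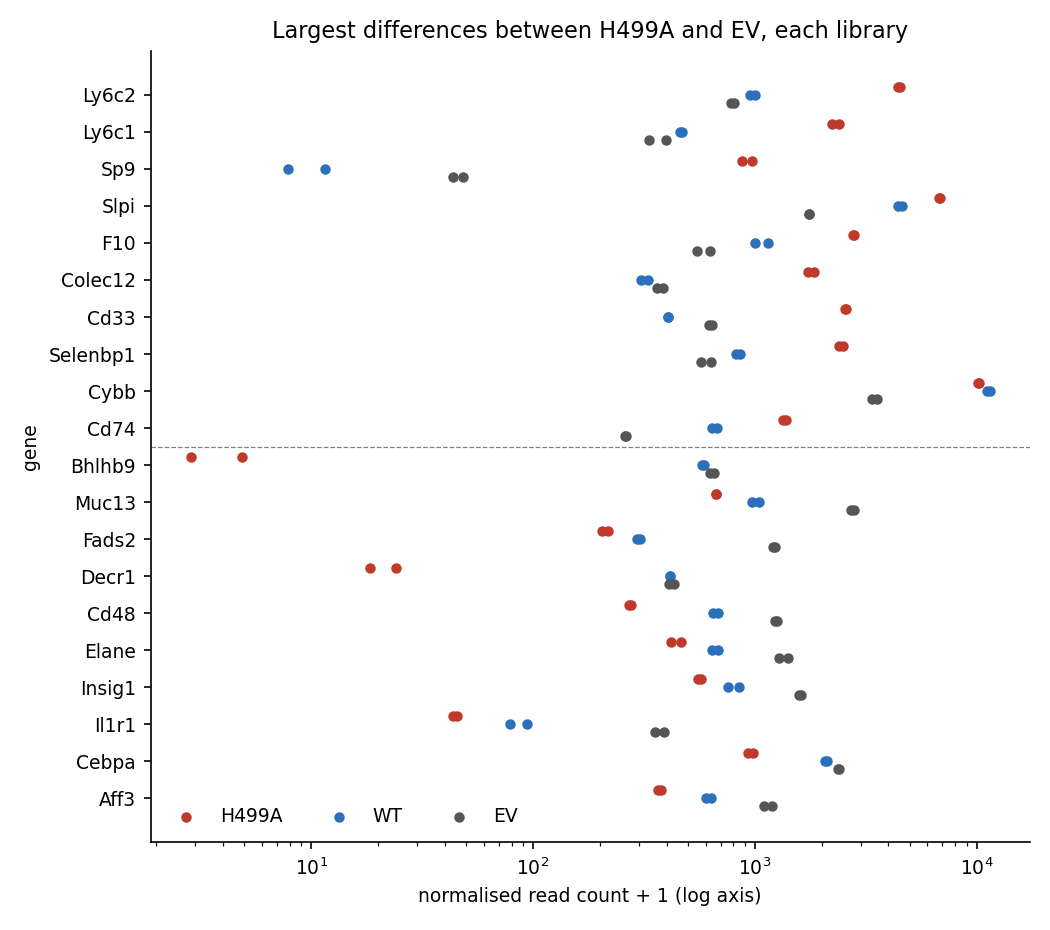
The 10 largest increases (above the dashed line) and 10 largest decreases (below it) in H499A against EV, as normalised read counts + 1 on a log axis. Each point is 1 library of H499A (red), WT (blue) or EV (grey). H499A and EV do not overlap in any of the 20 genes, and WT lies at different places relative to them.

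Monocyte and macrophage genes rose as a group. Of 32 members, 31 were in the table and 22 passed the filter on low values. Of these, 20 rose and 1 fell, with a median log2 difference of 0.63 beside -0.012 over all tested genes. By the same call 22.7% of all tested genes rose and 26.9% fell. Among the 19 members with both EV libraries over the filter, 17 rose and 1 fell. Without the filter 26 of 31 rose and 1 fell. Csf1r, the receptor of macrophage colony-stimulating factor, had 4839 and 4785 normalised counts in the H499A libraries, 7504 and 7674 in the WT libraries and 1891 and 1636 in the EV libraries (ratio 2.73, log2 difference 1.22 ± 0.034 SE, limma adjusted p = 1.54e-20). The ratios of the members that rose ran from 1.17 for Cd14 to 5.99 for Marco. Itgax, the CD11c integrin of dendritic cells and macrophages, was the member that fell, with 100.3 and 97.5 normalised counts in the H499A libraries, against 243 and 252 in the EV libraries (ratio 0.399, limma adjusted p = 3.42e-10). Cd68, a lysosomal protein of macrophages, had 685 and 716 normalised counts in the H499A libraries, against 644 and 631 in the EV libraries and was not called (limma adjusted p = 0.0606). Of the same 22, 18 were higher and 4 lower in WT than in EV. Over all tested genes the WT shares were 29.8% higher and 32.4% lower. Set directly against WT, 17 of the 22 were lower in H499A and 4 higher, a median of -0.34, where 28.2% of all tested genes were lower and 26.3% higher by the same limma call.

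Neutrophil and granule genes moved in both directions, more of them up. Of 11 tested members (18 of 28 in the table), 7 rose and 2 fell, with a median of 0.24 (63.6% higher and 18.2% lower beside 22.7% and 26.9% of all tested genes). Mmp8, the neutrophil collagenase, had 1007 and 992 normalised counts in the H499A libraries, 1639.7 and 1655 in the WT libraries and 377 and 345 in the EV libraries (ratio 2.77, log2 difference 0.86 ± 0.034 SE, limma adjusted p = 2.62e-17). Lcn2, an iron-chelating protein of secondary granules, had 877 and 874 normalised counts in the H499A libraries, 417 and 475 in the WT libraries and 272 and 206 in the EV libraries (ratio 3.66, log2 difference 1.00 ± 0.045 SE, limma adjusted p = 4.54e-16). These proteins belong to later granules than Elane, which fell. Against WT, 8 members were lower and 3 higher, beside 28.2% and 26.3% of all tested genes.

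The transcription factors that set myeloid fate moved in both directions, 9 up and 4 down of 14 tested (median 0.18, 64.3% higher and 28.6% lower beside 22.7% and 26.9% of all tested genes). The C/EBP family split. Cebpa fell, as given above, while Cebpb, which drives emergency granulopoiesis and macrophage genes, had 2697 and 2850.4 normalised counts in the H499A libraries, 1959 and 2109.7 in the WT libraries and 1129 and 1134 in the EV libraries (ratio 2.45, log2 difference 1.00 ± 0.032 SE, limma adjusted p = 2.6e-19). Cebpd, its acute-phase relative, had 1027 and 1051 normalised counts in the H499A libraries, 1217 and 1405 in the WT libraries and 534 and 505 in the EV libraries (ratio 2, log2 difference 0.62 ± 0.04 SE, limma adjusted p = 6.01e-13). In WT cells Cebpa was nearer to EV than to H499A, whereas Cebpb and Cebpd were above EV in both.

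Cytokine receptors and adhesion molecules followed. Of 17 receptors tested, 10 rose and 3 fell (median 0.13, 58.8% higher and 17.6% lower beside 22.7% and 26.9% of all tested genes). Flt3, the receptor of the progenitor cytokine FLT3 ligand, was among those that fell, with 741 and 712 normalised counts in the H499A libraries, 491 and 469 in the WT libraries and 1428 and 1357 in the EV libraries (ratio 0.522, log2 difference -0.64 ± 0.035 SE, limma adjusted p = 2.67e-14). Of 17 integrins and adhesion receptors, 6 rose and 5 fell (median 0.017, 35.3% higher and 29.4% lower beside 22.7% and 26.9% of all tested genes). The decreases numbered 3 without H499A replicate 2 and 3 without EV replicate 2. Itgb5, the beta subunit of the vitronectin receptor, had 2421 and 2319.7 normalised counts in the H499A libraries, 2271 and 2207 in the WT libraries and 838 and 746 in the EV libraries (ratio 2.99, log2 difference 1.16 ± 0.034 SE, limma adjusted p = 3.91e-20). Itgb2, the beta chain that pairs with CD11b and CD11a, had 3635 and 3456 normalised counts in the H499A libraries, 2805 and 2946 in the WT libraries and 1919 and 1873 in the EV libraries (ratio 1.87, log2 difference 0.75 ± 0.029 SE, limma adjusted p = 1.92e-17). Emb, the adhesion protein embigin, had 11798 and 11547 normalised counts in the H499A libraries, 13679 and 13667 in the WT libraries and 7299 and 6867 in the EV libraries (ratio 1.65, log2 difference 0.68 ± 0.025 SE, limma adjusted p = 6.56e-18). The 3 were higher in H499A and WT than in EV. The members that fell had ratios from 0.613 for Itgb3 to 0.953 for Selplg. Itgb3, the beta chain of the platelet fibrinogen receptor, had 789 and 834 normalised counts in the H499A libraries, 1108 and 1077 in the WT libraries and 1345 and 1303 in the EV libraries (ratio 0.613, limma adjusted p = 2.5e-12). Both EV libraries were the highest of the 6 for Itgb3.

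Of 13 chemokine and inflammatory genes tested, 10 rose and 2 fell (median 0.12, 76.9% higher and 15.4% lower beside 22.7% and 26.9% of all tested genes). A member can pass the filter without EV reaching it, and 7 rose and 2 fell among the 10 with both EV libraries over it. Saa3, a serum amyloid A made by macrophages, passed through H499A alone and had 287 and 298 normalised counts in the H499A libraries, 43.1 and 26.5 in the WT libraries and 63.1 and 45.3 in the EV libraries (ratio 5.4, log2 difference 0.78 ± 0.047 SE, limma adjusted p = 1.88e-13). Il1b, the inflammatory cytokine interleukin-1 beta, had 196 and 161 normalised counts in the H499A libraries, 148 and 149 in the WT libraries and 71 and 42.1 in the EV libraries (ratio 3.16, log2 difference 0.48 ± 0.049 SE, limma adjusted p = 6.4e-09). Cd44, the hyaluronan receptor, had 4936 and 5042 normalised counts in the H499A libraries, 4374 and 4149.6 in the WT libraries and 3561 and 3446 in the EV libraries (ratio 1.42, log2 difference 0.45 ± 0.027 SE, limma adjusted p = 1.87e-13). The high Saa3 level was seen in both H499A libraries and in neither WT library.

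Interferon-stimulated genes rose in H499A cells and not in one direction in WT cells. All 30 members were in the table, most at low levels. Without the filter, 25 rose and 0 fell between H499A and EV, where 2737 of all 13949 genes rose and 2671 fell by the same limma call. Of the 16 that passed the filter, 14 rose and 0 fell, with a median of 0.58. Of the 12 with both EV libraries over the filter, 10 rose and 0 fell, with a median of 0.50. The median over the 9037 genes with both EV libraries over it was -0.017. Between WT and EV, 6 of the 16 were higher and 6 lower, beside 29.8% and 32.4% of all tested genes. Set directly against WT, 13 were higher in H499A and 2 lower (median 0.52), the lower ones numbering 1 without any 1 of the 4 H499A and WT libraries. Over the 12 members with both EV libraries over the filter, 9 were higher and 2 lower (median 0.35). Over the 10 with both WT libraries over it, 7 were higher and 2 lower (median 0.21). Of all genes with both WT libraries over it, 25.2% were higher and 29% lower.

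The leading members detect or degrade viral RNA or block viral entry. Oas1a, an oligoadenylate synthetase that activates RNase L, had 1064 and 1074 normalised counts in the H499A libraries, 354 and 399.9 in the WT libraries and 295 and 297 in the EV libraries (ratio 3.61, log2 difference 1.06 ± 0.038 SE, limma adjusted p = 3.29e-18). Its relative Oas2 had 344 and 355 normalised counts in the H499A libraries, 29.4 and 29.5 in the WT libraries and 50.3 and 63.7 in the EV libraries (ratio 6.14, log2 difference 0.88 ± 0.043 SE, limma adjusted p = 1.71e-15). Ifitm3, a membrane protein that hinders viral fusion, had 1445 and 1351 normalised counts in the H499A libraries, 822 and 805 in the WT libraries and 657 and 645 in the EV libraries (ratio 2.15, log2 difference 0.74 ± 0.034 SE, limma adjusted p = 7.84e-16). The 2 H499A libraries were above all 4 other libraries for each of the 3 genes. Oas2 passed the filter through H499A alone. Over the members that rose, ratios ran from 1.18 for Ifit2 to 6.14 for Oas2.

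The promoters of Oas1a and Ifitm3 are shown because members of this list moved together and share a short motif. The window is 250 bases before to 50 after the gene start, from RefSeq on GRCm38.p6, and capitals mark matches to the core of the interferon-stimulated response element, searched as GAAA followed after any 2 bases by another GAAA, on both strands. In Oas1a 2 matches overlap. The windows are chr5:120907476-120907775 for Oas1a and chr7:141010695-141010994 for Ifitm3, both on the minus strand and printed 5′ to 3′.
Oas1a promoter: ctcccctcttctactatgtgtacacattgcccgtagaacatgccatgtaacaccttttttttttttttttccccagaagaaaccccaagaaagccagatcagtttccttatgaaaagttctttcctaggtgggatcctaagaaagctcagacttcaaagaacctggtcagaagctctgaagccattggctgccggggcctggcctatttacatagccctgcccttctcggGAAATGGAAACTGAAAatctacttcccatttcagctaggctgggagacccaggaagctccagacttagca
Ifitm3 promoter: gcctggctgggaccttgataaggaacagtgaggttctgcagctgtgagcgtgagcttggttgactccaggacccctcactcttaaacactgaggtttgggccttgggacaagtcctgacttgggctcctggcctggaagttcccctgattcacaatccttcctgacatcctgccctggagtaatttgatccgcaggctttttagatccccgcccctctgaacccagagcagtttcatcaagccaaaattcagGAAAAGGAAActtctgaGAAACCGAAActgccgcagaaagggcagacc

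A match was found in 8 of the 12 tested members with a promoter in that collection (66.7%), namely Oas1a, Oas3, Stat2, Ddx58, Ifih1, Bst2, Ifitm3 and Cxcl10. Over all 7129 tested genes with a promoter, 266 (3.73%) held one. The match describes the sequence only. Stat2 held the motif without being called, with 444 and 441 normalised counts in the H499A libraries, against 468 and 457 in the EV libraries (ratio 0.957, limma adjusted p = 0.465).

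Antigen presentation genes showed no common direction. Of 16 MHC class I genes, 4 rose and 6 fell (median -0.0018, 25% higher and 37.5% lower beside 22.7% and 26.9% of all tested genes), with 2 higher without H499A replicate 2 and 2 without EV replicate 1. Tapbp, tapasin of the peptide-loading complex, had 3891 and 3943 normalised counts in the H499A libraries, against 2803 and 2754 in the EV libraries (ratio 1.41, log2 difference 0.43 ± 0.026 SE, limma adjusted p = 1.87e-13). Psmb8, a subunit of the immunoproteasome, had 3992 and 4052 normalised counts in the H499A libraries, against 5222 and 5264 in the EV libraries (ratio 0.767, log2 difference -0.34 ± 0.025 SE, limma adjusted p = 1.3e-11). The peptide transporter gene Tap2 had 2501 and 2487 normalised counts in the H499A libraries, against 3283 and 3236 in the EV libraries (ratio 0.765, log2 difference -0.33 ± 0.028 SE, limma adjusted p = 1.75e-10). Of the 4 class II genes tested, Cd74 rose while H2-DMa, which helps to load peptide, had 244 and 241 normalised counts in the H499A libraries, against 351 and 325 in the EV libraries (ratio 0.718, limma adjusted p = 6.71e-05) and H2-Ob had 70.6 and 73.3 normalised counts in the H499A libraries, against 121 and 129 in the EV libraries (ratio 0.574, limma adjusted p = 7.29e-05). Over all tested genes 22.7% rose and 26.9% fell. H2-Ob passed the filter through WT alone.

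Cholesterol synthesis genes fell together, by about as much in H499A as in WT. Of 23 tested members (24 of 25 in the table), 21 fell and 0 rose between H499A and EV, with a median of -0.43. Over all tested genes 26.9% fell and 22.7% rose. Of the same 23, 0 were higher and 20 lower in WT than in EV, with a median of -0.43. By that contrast 29.8% of all tested genes were higher and 32.4% lower. Set directly against WT, 7 were higher in H499A, 5 lower and 11 not called, with a median of 0.00. The shares over all tested genes were 26.3% higher and 28.2% lower. Fdps, which makes farnesyl diphosphate, had 1354 and 1329.7 normalised counts in the H499A libraries, 1505 and 1543 in the WT libraries and 2543 and 2547 in the EV libraries (ratio 0.527, log2 difference -0.72 ± 0.029 SE, limma adjusted p = 3.17e-17). For Fdps both H499A libraries were below both WT libraries, and all 4 were well below EV. The ratios of the members that fell ran from 0.352 for Insig1 to 0.797 for Hsd17b7. The sterol response element core TCACNCCAC, searched on both strands of the same promoter windows, was in 1 of 16 members with a promoter (6.25%), Hmgcs1, and in 1.42% of all tested genes.

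**Figure D4:**
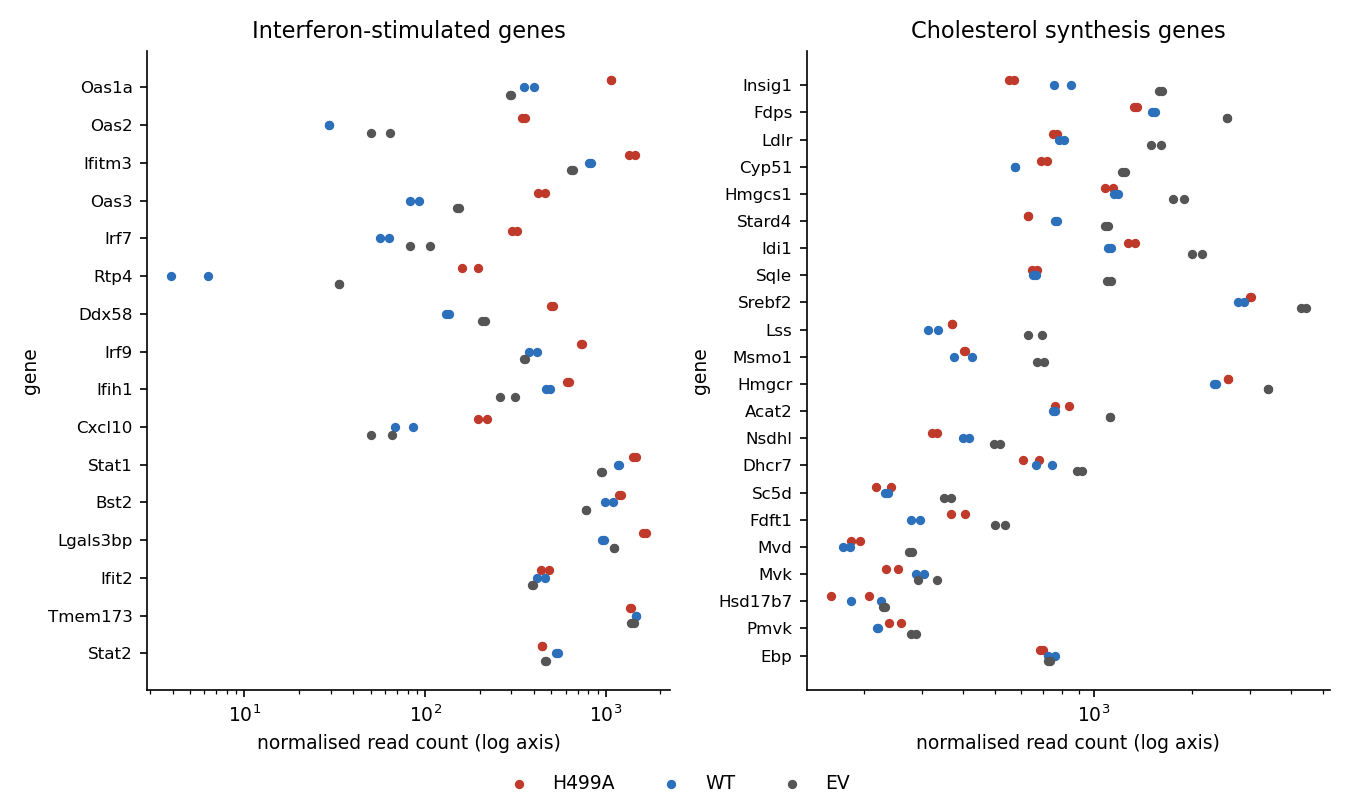
Normalised read counts (log axes) of the 16 tested interferon-stimulated genes and 22 of the 23 tested cholesterol synthesis genes in each library of H499A (red), WT (blue) and EV (grey), ordered by the difference between H499A and EV. H499A lies apart from both other groups for most of the interferon-stimulated genes, while H499A and WT lie together below EV for most cholesterol genes.

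HOX genes rose in H499A cells. Of 19 members 12 were in the table, and all 6 that were tested rose, with a median of 0.27. Over all tested genes 22.7% rose and 26.9% fell. The posterior genes changed most. Hoxa11 had 1011 and 1075 normalised counts in the H499A libraries, 646 and 614 in the WT libraries and 386 and 397 in the EV libraries (ratio 2.67, log2 difference 0.84 ± 0.036 SE, limma adjusted p = 1.59e-16). Hoxa10, which sustains progenitor growth, had 2382 and 2276 normalised counts in the H499A libraries, 1806 and 1871 in the WT libraries and 1483 and 1507 in the EV libraries (ratio 1.56, log2 difference 0.50 ± 0.03 SE, limma adjusted p = 1.48e-13). Hoxa9, the main HOXA effector of MLL fusions, had 4664 and 4816 normalised counts in the H499A libraries, 2953 and 2973 in the WT libraries and 3790.3 and 3751 in the EV libraries (ratio 1.26, log2 difference 0.29 ± 0.026 SE, limma adjusted p = 3.46e-10). For Hoxa9 WT was below EV and H499A above it. Against WT the 6 members were all higher in H499A (median 0.34), and between WT and EV 2 were higher and 2 lower. The shares over all tested genes were 26.3% higher and 28.2% lower against WT, and 29.8% and 32.4% between WT and EV.

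HOX cofactors differed. Pbx3, a partner of HOXA9, had 878 and 919.6 normalised counts in the H499A libraries, 199.6 and 206 in the WT libraries and 144 and 140.3 in the EV libraries (ratio 6.33, log2 difference 1.30 ± 0.039 SE, limma adjusted p = 5.84e-20). Meis1, the other partner, had 1309 and 1314 normalised counts in the H499A libraries, 1113 and 1050.4 in the WT libraries and 1218 and 1250.5 in the EV libraries and was not called against EV (log2 difference 0.064, 95% interval -0.0027 to 0.13, limma adjusted p = 0.105), while it was higher than in WT (ratio 1.21, limma adjusted p = 1.09e-05). Over the 26 tested stem cell and self-renewal genes, 6 rose and 14 fell (median -0.14, 23.1% higher and 53.8% lower beside 22.7% and 26.9% of all tested genes). Against WT, 13 were higher in H499A and 7 lower, beside 26.3% and 28.2% of all tested genes. Cd34, a progenitor surface sialomucin, had 4081 and 3887 normalised counts in the H499A libraries, 7047 and 7105 in the WT libraries and 6312 and 6102 in the EV libraries (ratio 0.642, log2 difference -0.58 ± 0.026 SE, limma adjusted p = 3.67e-16). Bcl2, the survival factor, had 1597 and 1655 normalised counts in the H499A libraries, 3329.8 and 3237 in the WT libraries and 3117 and 2996 in the EV libraries (ratio 0.532, log2 difference -0.74 ± 0.028 SE, limma adjusted p = 1.41e-17). In both, WT was slightly above EV and H499A well below it. Myc, the growth regulator, had 3053 and 3123 normalised counts in the H499A libraries, 3243 and 3339 in the WT libraries and 3745 and 3658 in the EV libraries (ratio 0.834, log2 difference -0.23 ± 0.027 SE, limma adjusted p = 7.03e-08).

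Replication genes fell slightly in H499A cells, less far than in WT cells. Of 32 S phase genes, 21 fell and 1 rose against EV (median -0.12, 3.12% higher and 65.6% lower beside 22.7% and 26.9% of all tested genes), the increases numbering 2 without either WT library or EV replicate 2. Of the same 32, 1 was higher and 29 lower in WT than in EV, where 29.8% of all tested genes were higher and 32.4% lower. Set directly against WT, 23 were higher in H499A and 3 lower (median 0.14), with 1 lower without H499A replicate 2. By that contrast 26.3% of all tested genes were higher and 28.2% lower. Mcm7, of the replicative helicase, had 9231 and 9226 normalised counts in the H499A libraries, 8492 and 8522 in the WT libraries and 11058 and 11676 in the EV libraries (ratio 0.812, log2 difference -0.28 ± 0.025 SE, limma adjusted p = 2.53e-10). Mcm3, of the same helicase, had 10046 and 10019.9 normalised counts in the H499A libraries, 8657 and 8619.6 in the WT libraries and 11368 and 11501 in the EV libraries (ratio 0.877, log2 difference -0.18 ± 0.022 SE, limma adjusted p = 1.86e-07). Pold1, the catalytic subunit of DNA polymerase delta, had 2639.9 and 2691 normalised counts in the H499A libraries, 2905 and 2989 in the WT libraries and 3421 and 3378 in the EV libraries (ratio 0.784, log2 difference -0.30 ± 0.027 SE, limma adjusted p = 4.73e-10).

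The share of mitotic genes that changed was near that of all tested genes. Of 30 G2 and M phase genes, 6 rose and 7 fell (median -0.01, 20% higher and 23.3% lower beside 22.7% and 26.9% of all tested genes). Without H499A replicate 2 the increases numbered 3, and without H499A replicate 1 the decreases numbered 4. Aurka, the spindle pole kinase, had 1525 and 1514 normalised counts in the H499A libraries, 1337 and 1386 in the WT libraries and 1273 and 1232 in the EV libraries (ratio 1.21, log2 difference 0.21 ± 0.031 SE, limma adjusted p = 3.92e-06). Bub1b, of the spindle checkpoint, had 4155 and 4141 normalised counts in the H499A libraries, against 4754 and 4591 in the EV libraries (ratio 0.888, limma adjusted p = 1.85e-05).

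MYC targets and ribosome biogenesis genes were close to EV and clearly above WT. Of 30, 4 rose and 12 fell against EV (median -0.046, 13.3% higher and 40% lower beside 22.7% and 26.9% of all tested genes). The increases numbered 2 without H499A replicate 1, H499A replicate 2 or EV replicate 1, and the decreases 7 without H499A replicate 2. Of the same 30, 0 were higher and 28 lower in WT than in EV (29.8% and 32.4% of all tested genes). Against WT, 28 were higher in H499A and 0 lower (median 0.17, beside 26.3% and 28.2% of all tested genes). Dkc1, the pseudouridine synthase of ribosomal RNA, had 4321 and 4305 normalised counts in the H499A libraries, 3957 and 3874 in the WT libraries and 5031 and 5144 in the EV libraries (ratio 0.848, log2 difference -0.21 ± 0.025 SE, limma adjusted p = 6.45e-08). Cdk4, the G1 kinase, had 9417 and 9339.6 normalised counts in the H499A libraries, 8275 and 8546 in the WT libraries and 10577 and 10817 in the EV libraries (ratio 0.877, log2 difference -0.18 ± 0.024 SE, limma adjusted p = 4.41e-07). H499A lay between WT and EV for both.

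Cytosolic ribosomal protein genes fell by a small and even amount, 27 of 30 lower and 0 higher (median -0.18, and -0.11 after quantile normalisation). Over all tested genes 26.9% were lower and 22.7% higher. Of the same 30 ribosomal genes, 0 were higher and 28 lower in WT than in EV (29.8% and 32.4% of all tested genes). Against WT, 6 were higher in H499A and 6 lower (26.3% and 28.2% of all tested genes). With quantile normalisation these became 2 higher and 15 lower, the higher ones were 2 without H499A replicate 1 and 3 without H499A replicate 2, and the lower ones 1 without H499A replicate 2 and 12 without WT replicate 1. Rps20, of the small subunit, had 18648 and 18115 normalised counts in the H499A libraries, 19111 and 19351 in the WT libraries and 22585 and 22753 in the EV libraries (ratio 0.811, log2 difference -0.29 ± 0.022 SE, limma adjusted p = 1.94e-11). Rpl3, of the large subunit, had 29057 and 28558 normalised counts in the H499A libraries, 29036 and 29440.5 in the WT libraries and 34639.5 and 34462 in the EV libraries (ratio 0.834, log2 difference -0.26 ± 0.022 SE, limma adjusted p = 1.5e-10). H499A and WT were near each other and below EV.

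The brakes on the cell cycle changed one by one. Cdkn1a, which codes for p21, had 1172 and 1197 normalised counts in the H499A libraries, 985 and 1043 in the WT libraries and 717 and 703 in the EV libraries (ratio 1.67, log2 difference 0.49 ± 0.034 SE, limma adjusted p = 2.72e-12). Cdkn2c, which codes for the CDK4 inhibitor p18, had 3279.6 and 3489 normalised counts in the H499A libraries, 3441 and 3504 in the WT libraries and 2754 and 2764 in the EV libraries (ratio 1.23, log2 difference 0.25 ± 0.028 SE, limma adjusted p = 2.93e-08). Cdkn1b, which codes for p27, had 509.8 and 471 normalised counts in the H499A libraries, 912 and 938 in the WT libraries and 608 and 695 in the EV libraries (ratio 0.753, log2 difference -0.23 ± 0.039 SE, limma adjusted p = 2.03e-05). Thus p21 and p18 transcripts rose while p27 transcripts fell. Cdkn2a, the gene of p16 and p19ARF, was much higher in WT than in H499A, with 84.5 and 87.8 normalised counts in the H499A libraries, 318 and 315 in the WT libraries and 61.1 and 61.5 in the EV libraries (ratio 1.4, log2 difference 0.12 ± 0.041 SE, limma adjusted p = 0.0176). That call against EV was lost without any 1 of the 4 H499A and EV libraries (limma adjusted p = 0.0584 to 0.0944), and the difference was -0.0028 after quantile normalisation. Cdkn2a passed the filter through WT alone. Of 8 tested members of this list, 3 rose, Cdkn2a among them, and 1 fell. Over all tested genes 22.7% rose and 26.9% fell.

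Among p53 targets, 12 of 18 tested rose and 3 fell (median 0.11, 66.7% higher and 16.7% lower beside 22.7% and 26.9% of all tested genes), with 7 higher without H499A replicate 2. Among the 15 with both EV libraries over the filter, 9 rose and 3 fell. Ccng1, cyclin G1, had 4321 and 4369 normalised counts in the H499A libraries, 5824 and 5844 in the WT libraries and 2975 and 2944 in the EV libraries (ratio 1.47, log2 difference 0.48 ± 0.025 SE, limma adjusted p = 6.01e-15). Fas, the death receptor, had 389 and 367 normalised counts in the H499A libraries, 225 and 169 in the WT libraries and 119 and 105 in the EV libraries (ratio 3.37, log2 difference 0.69 ± 0.046 SE, limma adjusted p = 1.98e-12). Ccng1 was highest in WT and Fas in H499A. In the BCL2 family, 6 of 12 rose and 3 fell (median 0.086, 50% higher and 25% lower beside 22.7% and 26.9% of all tested genes). Bax, a pore-forming killer of the family, had 2208 and 2192 normalised counts in the H499A libraries, 2457 and 2677 in the WT libraries and 1618 and 1644 in the EV libraries (ratio 1.35, log2 difference 0.34 ± 0.031 SE, limma adjusted p = 8.1e-10). Pmaip1, the gene of the MCL1 antagonist NOXA, had 1987 and 2029 normalised counts in the H499A libraries, 1809.8 and 1803 in the WT libraries and 2699 and 2659.5 in the EV libraries (ratio 0.749, log2 difference -0.34 ± 0.028 SE, limma adjusted p = 9.2e-11).

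Glycolysis enzymes moved in both directions between H499A and EV, and nearly all were higher in H499A than in WT. Of 16, 4 rose and 6 fell against EV (median -0.0078, 25% higher and 37.5% lower beside 22.7% and 26.9% of all tested genes), with 7 higher after quantile normalisation. Of the same 16, 1 was higher and 15 lower in WT than in EV (29.8% and 32.4% of all tested genes). Set directly against WT, 15 were higher in H499A and 1 lower (median 0.48, beside 26.3% and 28.2% of all tested genes). Pkm, pyruvate kinase, had 64071 and 64046 normalised counts in the H499A libraries, 47328 and 48343 in the WT libraries and 52928 and 52535 in the EV libraries (ratio 1.21, log2 difference 0.28 ± 0.022 SE, limma adjusted p = 3.89e-11). Hk1, hexokinase 1, had 2943 and 2899 normalised counts in the H499A libraries, 1895 and 1884 in the WT libraries and 2219 and 2219 in the EV libraries (ratio 1.32, log2 difference 0.33 ± 0.027 SE, limma adjusted p = 1.17e-10). Slc16a3, the exporter of lactate, went the other way, with 150.4 and 148 normalised counts in the H499A libraries, 639.7 and 634 in the WT libraries and 351 and 324 in the EV libraries (ratio 0.442, log2 difference -0.48 ± 0.039 SE, limma adjusted p = 8.65e-11).

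Respiratory chain subunits changed little, 7 of 30 higher and 1 lower against EV (median 0.025, 23.3% higher and 3.33% lower beside 22.7% and 26.9% of all tested genes). The increases numbered 4 without EV replicate 1 and the decreases 2 without H499A replicate 1. Cyc1, cytochrome c1, had 3343 and 3316 normalised counts in the H499A libraries, against 2720.2 and 2786 in the EV libraries (ratio 1.21, limma adjusted p = 4.71e-07). Sdhb, the iron-sulfur subunit of succinate dehydrogenase, had 2368 and 2246 normalised counts in the H499A libraries, against 2604 and 2579.7 in the EV libraries (ratio 0.89, limma adjusted p = 0.000367).

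Among stress response genes, 10 of 24 rose and 11 fell (median -0.044, 41.7% higher and 45.8% lower beside 22.7% and 26.9% of all tested genes), the decreases numbering 7 without EV replicate 2. Both named chaperones of the endoplasmic reticulum rose. Hspa5, BiP, had 27300.2 and 27091 normalised counts in the H499A libraries, 27807 and 27674 in the WT libraries and 21301 and 20888 in the EV libraries (ratio 1.29, log2 difference 0.36 ± 0.022 SE, limma adjusted p = 2.02e-13). Hsp90b1, GRP94, had 31004 and 30949 normalised counts in the H499A libraries, 28315 and 27431 in the WT libraries and 23512 and 23386 in the EV libraries (ratio 1.32, log2 difference 0.39 ± 0.022 SE, limma adjusted p = 4.62e-14). Slc7a11, the cystine importer, had 304 and 267 normalised counts in the H499A libraries, 229 and 227 in the WT libraries and 64.1 and 74.4 in the EV libraries (ratio 4.12, log2 difference 0.68 ± 0.042 SE, limma adjusted p = 3.65e-13). All 3 were above EV in WT as well. The members that fell had ratios from 0.649 for Ddit3 to 0.929 for Asns. Among them were Atf4 and some of the genes that it is known to induce, while others of these, such as Slc7a11, rose. Atf4, the transcription factor of the integrated stress response, had 4400.4 and 4409 normalised counts in the H499A libraries, 3984 and 4167 in the WT libraries and 4977 and 4855 in the EV libraries (ratio 0.896, limma adjusted p = 5.71e-05). Ddit3, the gene of CHOP, had 110.5 and 103 normalised counts in the H499A libraries, 127 and 121 in the WT libraries and 159.8 and 169 in the EV libraries (ratio 0.649, limma adjusted p = 0.000238). Slc7a5, an importer of large amino acids, had 2711 and 2819.5 normalised counts in the H499A libraries, 2805 and 2763 in the WT libraries and 3394 and 3404 in the EV libraries (ratio 0.814, limma adjusted p = 1.13e-08). For these 3 both H499A and WT were below EV. Ddit3 passed the filter through EV alone.

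Of 15 immediate early genes, 3 were higher and 6 lower (median -0.013, 20% higher and 40% lower beside 22.7% and 26.9% of all tested genes), with 1 higher without EV replicate 2. Among the 12 with both EV libraries over the filter, 2 rose and 6 fell. Both genes of the AP-1 pair moved, in opposite directions. Fos had 679 and 735 normalised counts in the H499A libraries, 645 and 694 in the WT libraries and 506 and 452 in the EV libraries (ratio 1.48, limma adjusted p = 1.33e-07) and Jun had 665 and 686 normalised counts in the H499A libraries, 926 and 893 in the WT libraries and 995 and 926 in the EV libraries (ratio 0.703, limma adjusted p = 1.77e-08). Dusp6, a phosphatase that restrains ERK, had 831 and 843 normalised counts in the H499A libraries, 1289 and 1376 in the WT libraries and 1204 and 1194 in the EV libraries (ratio 0.698, log2 difference -0.35 ± 0.033 SE, limma adjusted p = 1.11e-09).

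The chromatin machinery around KDM5B changed modestly. Of 17 genes of the H3K4 methyltransferase complexes, 2 rose and 9 fell (median -0.076, 11.8% higher and 52.9% lower beside 22.7% and 26.9% of all tested genes), the increases numbering 1 without any 1 of the 4 H499A and EV libraries. Kmt2a, the gene of MLL itself, had 6860.1 and 6811 normalised counts in the H499A libraries, 4153 and 4041 in the WT libraries and 4952 and 4721 in the EV libraries (ratio 1.41, log2 difference 0.46 ± 0.026 SE, limma adjusted p = 5.47e-14), a count that can include reads of the fusion. Setd1a, another H3K4 methyltransferase, had 1587 and 1529 normalised counts in the H499A libraries, 1502 and 1491 in the WT libraries and 1942 and 1929 in the EV libraries (ratio 0.805, limma adjusted p = 1.3e-07). Psip1, the gene of LEDGF, which tethers MLL to chromatin, had 3105 and 3281 normalised counts in the H499A libraries, 3013 and 2839 in the WT libraries and 3872 and 4083 in the EV libraries (ratio 0.803, limma adjusted p = 2.51e-08). For Kmt2a the H499A libraries were the highest of the 6, while Setd1a and Psip1 were lowest in WT.

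Among 6 H3K4 demethylases, Kdm5b rose and Kdm1a, the gene of LSD1, had 2481 and 2396 normalised counts in the H499A libraries, against 2594 and 2574 in the EV libraries (ratio 0.944, limma adjusted p = 0.0406). The Kdm1a call was lost without H499A replicate 2, EV replicate 1 or EV replicate 2, without the filter and without the trend, and the list's decreases numbered 2 after quantile normalisation and without either WT library. Of 11 NuRD subunits, 7 fell and 0 rose (median -0.12, 0% higher and 63.6% lower beside 22.7% and 26.9% of all tested genes). Chd3, a remodeller of that complex, had 2282 and 2353 normalised counts in the H499A libraries, 2321 and 2208 in the WT libraries and 3419 and 3382 in the EV libraries (ratio 0.682, log2 difference -0.47 ± 0.028 SE, limma adjusted p = 2.23e-13). Of 10 PRC2 subunits, 4 fell and 1 rose, 2 without either WT library (median -0.00036, all tested genes 26.9% lower and 22.7% higher). Ezh2, its H3K27 methyltransferase, had 3796 and 3774 normalised counts in the H499A libraries, 3727 and 3577 in the WT libraries and 4205 and 4281 in the EV libraries (ratio 0.892, log2 difference -0.15 ± 0.026 SE, limma adjusted p = 4.42e-05). Jarid2, a targeting subunit that shares the Jumonji fold but lacks demethylase activity, had 3000.1 and 2990.3 normalised counts in the H499A libraries, 1900.2 and 1719.6 in the WT libraries and 2049 and 2182 in the EV libraries (ratio 1.42, log2 difference 0.42 ± 0.033 SE, limma adjusted p = 5.3e-11). For Jarid2 both H499A libraries were above the other 4.

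**Figure D5:**
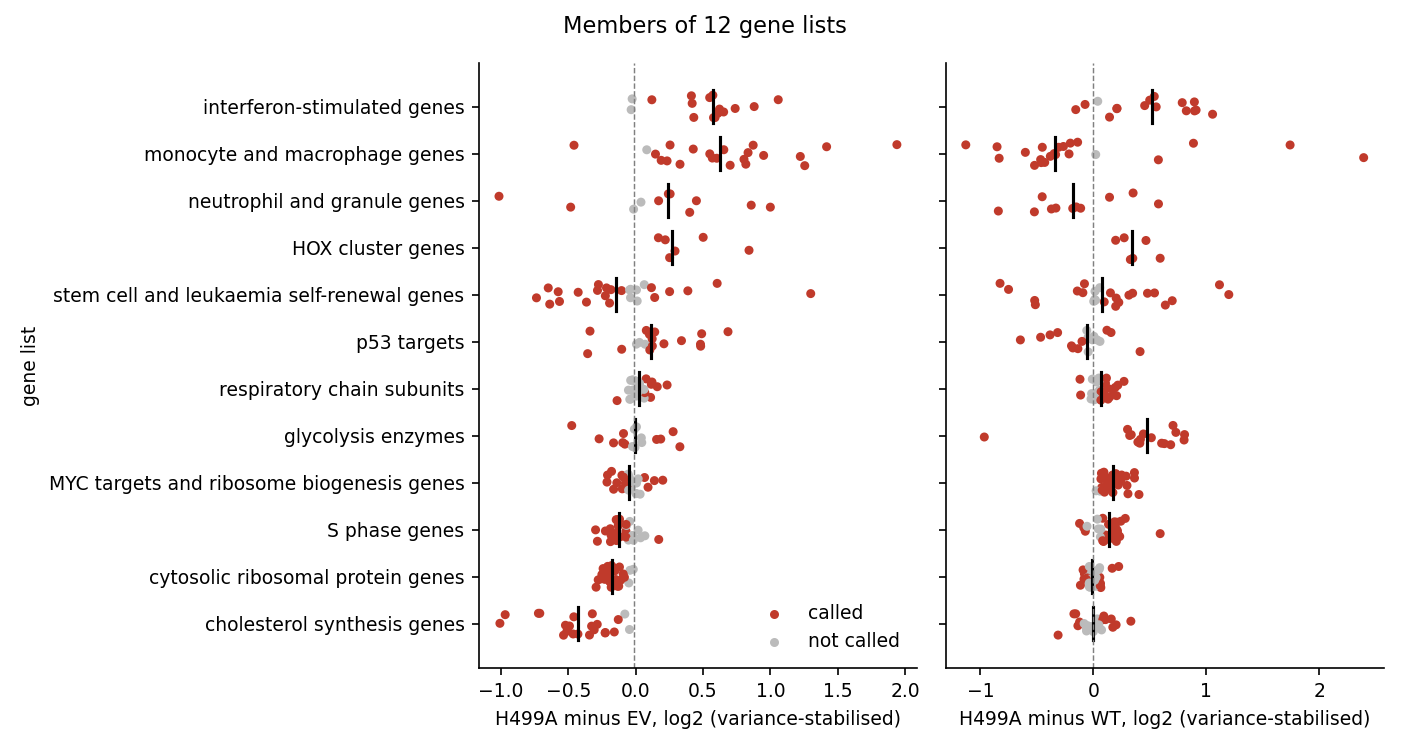
Log2 differences (variance-stabilised scale) of the tested members of 12 gene lists, H499A minus EV on the left and H499A minus WT on the right. Each point is a gene, red where called at a limma adjusted p under 0.05, black bars are list medians and dashed lines the median of all tested genes. Interferon-stimulated and HOX genes lie to the right in both panels, monocyte genes to the right of the line against EV and mostly to the left against WT, and glycolysis and MYC target genes to the right against WT.

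More genes differed between H499A and WT than between H499A and EV, and fewer than between WT and EV. Of the 9458 tested genes, 5146 (54.4%) were called between H499A and WT, 2483 higher (26.3%) and 2663 lower (28.2%) in H499A. Centring each library on its median gave 54.5% higher among the called genes, against 48.3% as deposited. WT and EV differed in 5881 genes (62.2%). The comparisons with EV share its 2 libraries. Lgals3, the gene of galectin-3, had 1461 and 1489 normalised counts in the H499A libraries, 18.9 and 26.5 in the WT libraries and 377 and 348 in the EV libraries (ratio 64.9, limma adjusted p = 7.85e-25) against WT. It was above EV in H499A and far below EV in WT. Tmem176b, a transmembrane protein, had 2917 and 3019 normalised counts in the H499A libraries, 7991 and 8351 in the WT libraries and 4697 and 4581 in the EV libraries (ratio 0.363, limma adjusted p = 2.4e-23) against WT. Fmnl2, a formin that builds actin filaments, had 71.5 and 85.9 normalised counts in the H499A libraries, 716 and 719 in the WT libraries and 68.1 and 64.7 in the EV libraries (ratio 0.11, limma adjusted p = 1.23e-19) against WT, with H499A near EV. Fmnl2 passed the filter through WT alone.

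Some genes were near silent in one population and clearly expressed in another. With under 10 normalised counts in both libraries of 1 group and at least 100 in both of the other, limits chosen after the values were seen, 7 genes were on in H499A and off in EV and 5 were off in H499A and on in EV. Those on in H499A were Il1f9, Cited4, Pcdh7, Lin28b, Pmp22, I830127L07Rik and Pkdcc, and those off were Gm13212, Adrbk2, Ppic, Lrfn4 and Bhlhb9. Lin28b, which blocks maturation of let-7 microRNAs in fetal progenitors, had 255 and 259 normalised counts in the H499A libraries, 1.05 and 1.97 in the WT libraries and 0 and 5.39 in the EV libraries. Pmp22, a myelin protein, had 187 and 188 normalised counts in the H499A libraries, 7.35 and 3.93 in the WT libraries and 0 and 1.08 in the EV libraries. Cited4, a CBP-binding coactivator, had 285 and 247 normalised counts in the H499A libraries, 14.7 and 10.8 in the WT libraries and 5.92 and 8.63 in the EV libraries. These 3 were high in both H499A libraries alone. Ppic, cyclophilin C, had 2.79 and 0.965 normalised counts in the H499A libraries, 529 and 556 in the WT libraries and 105 and 102 in the EV libraries (ratio 0.0181, limma adjusted p = 5.97e-14). Adrbk2, a kinase of G protein-coupled receptors, had 6.5 and 7.72 normalised counts in the H499A libraries, 710.1 and 705 in the WT libraries and 173 and 156 in the EV libraries (ratio 0.0432, limma adjusted p = 1.95e-15). Both were highest in WT and almost absent in H499A. Ppic passed the filter through WT alone. Against WT by the same limits, 6 genes were on in H499A and 8 off.

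Knockdown of Kdm5b in another leukaemia, NUP98-NSD1 cells, gives values from separate libraries (3 shKdm5b and 3 shEV, 21.3 to 34.8 M reads). Kdm5b had 34.1, 28.8 and 23.2 normalised counts in the shKdm5b libraries, against 61.6, 94.8 and 67 in the shEV libraries, a ratio of 0.385, and was below the filter of that fit. Of 10810 genes tested there, 3509 (32.5%) were called, 1624 higher (15%) and 1885 lower (17.4%). The total was 5556 without shKdm5b replicate 1, 1907 without shEV replicate 1, 2006 without shEV replicate 2 and 2017 without shEV replicate 3. Over the 9108 genes tested in both experiments, 2011 rose in H499A, of which 391 (19.4%) were higher and 465 (23.1%) lower after knockdown. Of the 2411 that fell in H499A, 391 (16.2%) were higher and 392 (16.3%) lower. Over all 9108 genes, 14.5% were higher and 18.4% lower. Genes that rose in H499A were therefore found on both sides of the knockdown.

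Individual genes moved in both ways. Ly6c2 had 7573, 7356 and 7723 normalised counts in the shKdm5b libraries, against 2981, 3099.8 and 3061 in the shEV libraries (ratio 2.48, limma adjusted p = 4.11e-07). Ifitm3 had 1552, 1359 and 1389.7 normalised counts in the shKdm5b libraries, against 455, 491 and 435 in the shEV libraries (ratio 3.11, limma adjusted p = 2.27e-06). Both rose after knockdown as they did with H499A. Muc13, which fell in H499A, had 6259, 6745 and 6412 normalised counts in the shKdm5b libraries, against 1655, 1728 and 1784 in the shEV libraries (ratio 3.76, limma adjusted p = 1.34e-07). Cebpa, which also fell, had 3198, 2926 and 3066 normalised counts in the shKdm5b libraries, against 2381, 2337 and 2305 in the shEV libraries (ratio 1.31, limma adjusted p = 0.00057). These 2 rose after knockdown. Pbx3 had 167, 147 and 177 normalised counts in the shKdm5b libraries, against 203, 212 and 221 in the shEV libraries (ratio 0.773, limma adjusted p = 0.0238), and Hoxa10 had 2273, 2134 and 2031 normalised counts in the shKdm5b libraries, against 2566, 2601 and 2635 in the shEV libraries (ratio 0.825, limma adjusted p = 0.0044), both lower after knockdown and higher with H499A. Of 13 interferon-stimulated genes tested there, 8 were higher and 0 lower, and of 23 cholesterol genes 2 were higher and 7 lower. Over all genes tested there 15% were higher and 17.4% lower. The 2 experiments differ in the leukaemia, the vector and the direction of the Kdm5b change, and the cause of any difference was not tested.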

How the data were processed

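The submitters' processing notes name STAR 2.4.2, Salmon 0.1.19, DESeq2 1.38.2 and the build mm10 (GRCm38.p4). The authors deposited log2 values after a variance-stabilising transformation. The kits named in the labels are 2, and which made which library is not given in the sources used here. Undoing the transformation from the lowest value of the table (8.18232) gave whole read counts for 100% of values (tolerance 0.05), so the deposited values also give each library's count depth. Of 13949 genes, 9458 lay at least 1 log2 unit above that lowest value in at least 2 libraries (145 normalised counts) and were tested. In the knockdown table the same limit in 3 libraries (86.6 normalised counts) left 10810 of 15623 genes.

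The deposited log2 values were fitted with limma 3.58.1 in R 4.3.3, with 1 mean per group, all 6 libraries of the table sharing the estimate of spread, eBayes with trend and Benjamini-Hochberg adjustment over all tested genes. Calls are adjusted p under 0.05. The contrasts were H499A against EV, H499A against WT, WT against EV and shKdm5b against shEV. The fit was tested on simulated data. In the H499A and EV simulation on 9458 genes, 98% of changes of 0.25 log2 units were recovered. Its noise was normal, with a spread smoothed over genes of similar level. Far fewer genes were changed in it than were called in the data. The simulation therefore cannot show the recovery under the real spread from gene to gene. Ratios divide mean normalised counts of the 2 groups. Coordinates came from GENCODE M21, where 97 of 98 named genes were found.

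The experiment, its gene lists and markers were chosen with earlier results of these data known. Genes named are Kdm5b and, among called genes with no overlap between the libraries compared, the 10 largest differences each way against EV and the 6 each way against WT, then per list the called members of lowest adjusted p (at most 3), and Ezh2, Hoxa9, Meis1, Myc, Cdkn2a and Cdkn1a. Predicted genes were left out. Itgax, Cd68, Stat2, Itgb3, Atf4, Ddit3, Slc7a5, the markers given by name and the near-silent genes outside that rule, and the members that end a range of ratios, were named after their values were seen. Some list members are not reported here by name. No list test was run. The inhibitor libraries were not used here. The settings varied were the filter (none, or 2 log2 units), the scaling (median centring or quantile normalisation), eBayes (robust, or without its trend), a replicate block, fitting the compared groups alone, voom on the recovered counts, a 1 log2 unit minimum, and each library left out.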

Additional observations from a re-analysis of the deposited data

How the results depend on the processing

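Requiring 1 log2 unit as well left 51 genes between H499A and EV (42 higher, 9 lower) and 37 between H499A and WT (23 higher, 14 lower). The share higher among genes called against EV was then 82.4%, beside 45.8% without that minimum. The filter at 2 log2 units, which tests 5937 genes, left 1736 lower against WT and 1794 higher between WT and EV. Leaving out 1 library gave 3720 to 5002 calls against EV (1745 to 2287 higher, 1963 to 2715 lower), 4153 to 5012 against WT (2026 to 2411 higher, 2127 to 2601 lower) and 4968 to 5765 between WT and EV. The knockdown gave 1907 to 5556 (891 to 2563 higher, 1016 to 2993 lower). Kdm5b then differed by 0.45 to 0.51 against EV and by -1.38 to -1.32 against WT. With the replicate block, 4769 genes were called against EV and 5238 against WT, and Kdm5b kept 0.48 and -1.35. Deviations of same-numbered libraries correlated at -0.031, -0.054 and -0.011 between the MLL-AF9 groups. In the knockdown they correlated at 0.223, -0.0972 and -0.15 for replicates 1, 2 and 3. These values cannot show whether libraries were prepared in pairs. Cdkn2a reversed against EV under quantile normalisation (-0.0028, limma adjusted p = 0.962), and the cause was not tested. Over the alternatives other than the 1 log2 unit minimum, which was applied to the counts over all genes alone, named genes kept their direction and side of the threshold against EV in 1432 cases and lost the call in 9, those of Kdm1a and Cdkn2a, and against WT in 1405, with 24 calls lost and 13 gained. List counts stayed within 1.5 times in 1516 cases and moved further in 104. With 2 libraries per group the residual degrees of freedom are 3. Genes of the MLL-AF9 table without 145 normalised counts in at least 2 of its 6 libraries were not tested.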
